A study of Mus musculus with 661 samples.

Results

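The 9 genes described here encode receptors with which endothelial cells clear material from blood or sense microbial products: *Stab1*, *Stab2*, *Mrc1*, *Fcgr2b*, *Cd36*, *Scarf1*, *Scarb1*, *Cd14* and *Tlr4*, out of 45808 gene symbols in the count table. They were selected by known function and on their measured levels in sorted arteriolar (AEC) and sinusoidal (SEC) endothelial cells of these same data. Levels across populations, ages and clusters are therefore a description, and none of them was tested.

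RNA sequencing was run on single stromal cells sorted into plates from wild-type C57BL/6 mice of both sexes, either young (6 to 12 weeks) or old (at least 18 months). AEC were Ter119-/CD45-/CD31+ cells with high Sca-1 and low CD105 from the endosteum (84 young and 82 old cells), and SEC were Ter119-/CD45-/CD31+ cells with low Sca-1 and high CD105 from central marrow (70 young and 71 old cells). The remaining 354 cells were mesenchymal and serve here only as a reference. No mouse is named for any cell, so all cells of a population and age count as 1 sample and differences between groups have no replicate check. The median cell had 314844 nuclear gene counts in young SEC (range 149085 to 487257), 302201 in old SEC (71320 to 454362), 409992 in young AEC (79537 to 744650) and 414261 in old AEC (148403 to 810982). Levels are in CPM, the nuclear gene counts of a gene summed over a group and scaled to the usual common total of counts, with exact Poisson 95% intervals. Ratios carry exact conditional binomial intervals, and shares of cells carry Clopper-Pearson intervals. Reads without molecular identifiers are not independent molecules, so every interval covers counting error only and not the spread between mice. A cell was said to carry a gene at 10 CPM or more. SEC libraries lay in the third of 3 ranges of library numbers, so SEC were compared with the AEC of that range alone (24 young and 23 old cells). Old and young SEC were also compared within 3 pairs of neighbouring blocks of library numbers, with 23 to 24 cells per block and age.

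Sinusoidal endothelium lines the wide, thin-walled vessels of marrow, liver and spleen and is known for rapid receptor-mediated endocytosis. Stabilins, the mannose receptor and the inhibitory Fc gamma receptor bind modified proteins, glycosaminoglycans, glycoproteins and immune complexes and carry them into clathrin-coated vesicles, while class B scavenger receptors handle fatty acids and lipoproteins. CD14 hands bacterial lipopolysaccharide to the complex of TLR4 and MD-2, which starts inflammatory signalling.

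The sort labels were first checked against marker genes other than the 9 receptors. The 8 pan-endothelial markers summed to 7092 CPM in young SEC, 7548 in old SEC, 7202 in young AEC and 7200 in old AEC. The 8 sinusoidal markers summed to 13106 CPM in young SEC and 8144 in old SEC, against 1818 and 1320 in young and old AEC. *Il6st* was the most abundant of them, and *Lyve1*, often used for sinusoids, was at 0.0912 CPM in young SEC and had 0 counts in old SEC. The 10 arteriolar markers summed to 636 CPM in young SEC and 2388 in old SEC, and to 7191 and 8466 in young and old AEC. Old SEC thus held more arteriolar marker RNA than young SEC did. In the authors' endothelial clusters (E1 to E7, made by iterative clustering and guide-gene selection, ICGS), 59 of 70 young SEC (84.3%) and 44 of 71 old SEC (62%) were in E7, and within E7 the arteriolar markers summed to 593 CPM in young and 642 in old cells. The sinusoidal markers summed to 14552 CPM in young and 11405 in old E7 cells, so E7 cells of both ages were not alike in them. *Stab1*, *Stab2* and *Mrc1* are themselves guide genes of these clusters, so their levels by cluster follow partly from how the clusters were made. The receptors are compared by age over all SEC and again within E7, where the 61 young cells are 59 SEC and 2 AEC and the 44 old cells are all SEC.

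Young SEC carried most of the receptors at higher levels than young AEC. In this comparison 6 of the 9 genes were at least 2-fold higher in SEC (*Stab1*, *Stab2*, *Mrc1*, *Scarf1*, *Cd14* and *Tlr4*), where 24.9% of 11908 genes past a filter on counts were, and 1 was at least 2-fold lower (*Cd36*), where 17.3% of genes were. The filter asked for 100 or more counts, spread over 5 or more cells, and all 9 receptors passed it; the 2-fold limit was applied to ratios with a pseudocount of 1 CPM. The median log2 ratio was 1.67 over the receptors and 0.10 over all genes past the filter. In old cells, 5 of 9 were at least 2-fold higher in SEC (*Stab1*, *Stab2*, *Mrc1*, *Fcgr2b* and *Scarf1*), against 27.6% of 12082 genes, and *Cd36* alone was at least 2-fold lower, against 15.3% of genes. The median log2 ratio was then 1.75 over the receptors and 0.22 over all genes. Since this contrast helped to choose the genes, nothing is read from these counts.

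The plot of single cells shows how differently the 9 genes are spread. Stabilins, *Mrc1* and *Cd36* formed dense bands in SEC, whereas *Fcgr2b*, *Cd14* and *Tlr4* were at 0 in many cells and high in others.

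**Figure D1:**
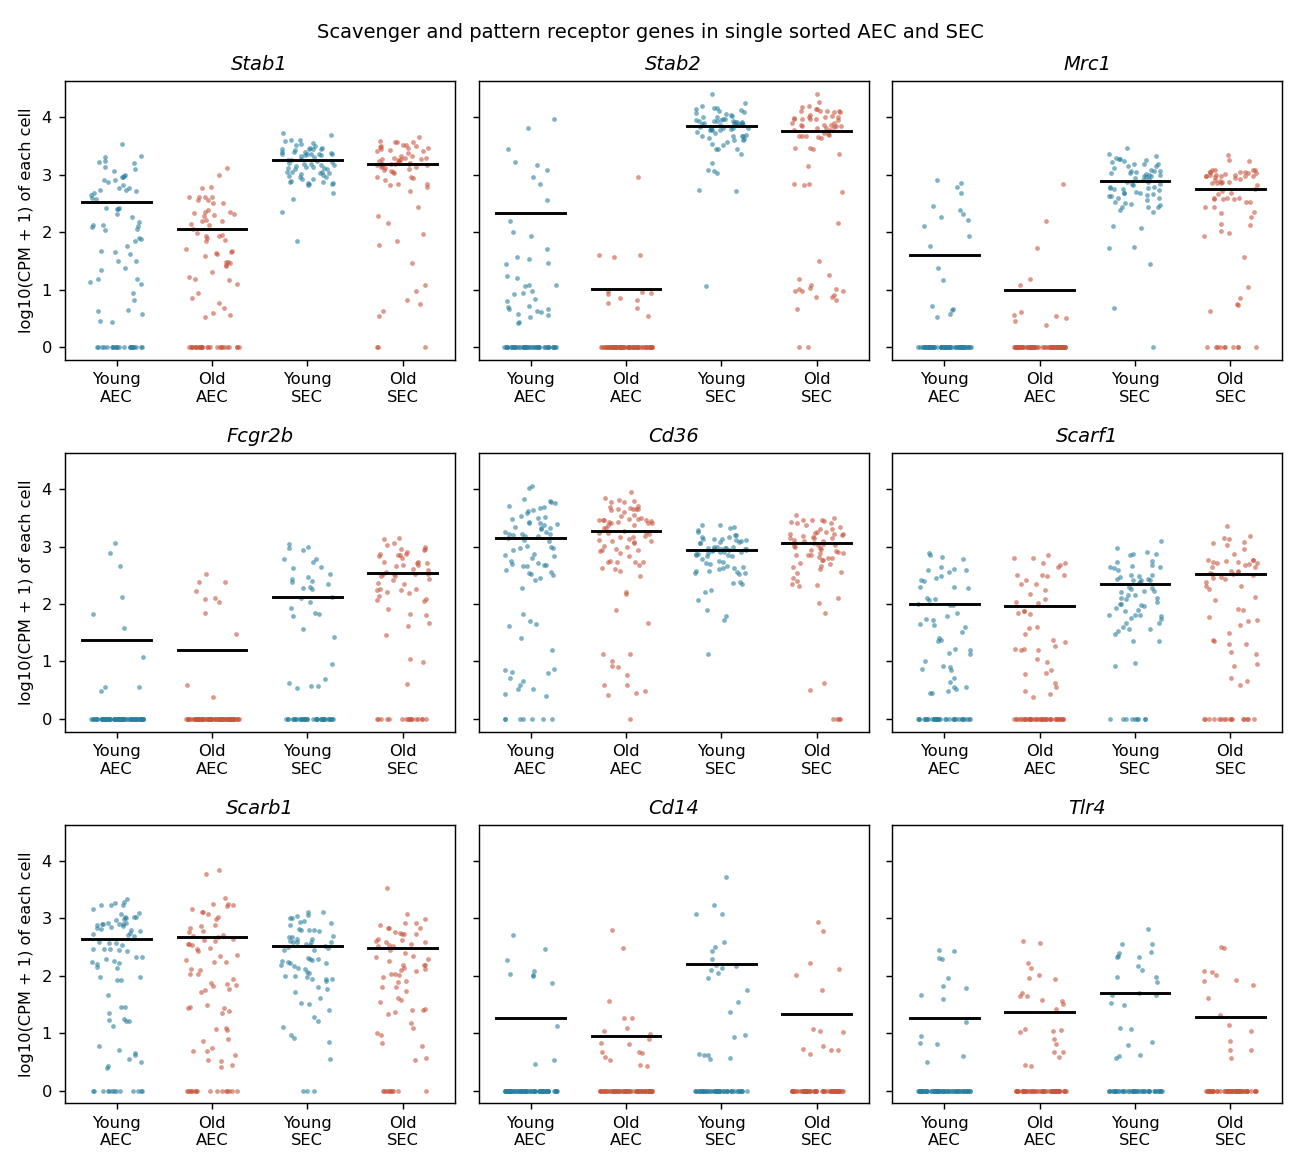
Level of each receptor gene in every sorted cell, as log10(CPM + 1) on the y axis, for young AEC (84 cells), old AEC (82), young SEC (70) and old SEC (71); each point is a cell and the black bar is the CPM of summed counts on the same scale. *Stab2* is carried by 70 of 70 young SEC and 4 of 82 old AEC, and *Cd14* by 17 young and 8 old SEC.

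*Stab1* and *Stab2* encode stabilin-1 and stabilin-2, large scavenger receptors that take up modified lipoproteins, collagen propeptides and, for stabilin-2, hyaluronan. Among young SEC, the lowest, median and highest cell had 69.5, 1591 and 5332 CPM of *Stab1*, and the group was at 1829 CPM (1811 to 1847). Young AEC of the same library range had 0, 61.7 and 3490 CPM and a group level of 572, so the log2 ratio was 1.68 (1.63 to 1.73). The cells overlapped between the populations, and 16 of 24 AEC carried the gene. *Stab2* separated the populations further, with 10.7, 7096 and 25818 CPM in the lowest, median and highest young SEC and 0, 7.56 and 9206 CPM in young AEC. Its group levels of 7177 and 798 CPM gave a log2 ratio of 3.17 (3.13 to 3.21), or 8.99-fold. A single AEC, which lay in cluster E7, supplied 38.1% of the *Stab2* counts of its group. Without the highest cell of each group the log2 ratio, with the pseudocount, was 3.78. In old cells *Stab2* was at 5875 CPM in SEC and 47.9 in AEC, where 1 cell supplied 86.9% of the counts, and the ratio was 123-fold (log2 6.94, 6.78 to 7.11). Without the highest cell of each group that log2 ratio was 9.54. Exons of *Stab1* and *Stab2* overlap those of *Nt5dc2* and *Gm16268*, and counting ignored strand, so reads of these pairs cannot be told apart there. Counts given to *Nt5dc2* (1200 in young and 1681 in old SEC) were few beside 40110 and 32167 for *Stab1*, and those given to *Gm16268* (546 and 346) beside 157371 and 121755 for *Stab2*.

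*Mrc1* encodes the mannose receptor CD206, a C-type lectin that clears glycoproteins with terminal mannose and collagen fragments. It was found in 68 of 70 young SEC (97.1%, 90.1 to 99.7) and in 6 of 24 young AEC (25.0%, 9.77 to 46.7). All 6 of these AEC lay in clusters E6 or E7. The lowest, median and highest young SEC had 0, 674 and 2928 CPM, and the group levels of 795 and 122 CPM in SEC and AEC gave a log2 ratio of 2.71 (2.60 to 2.81). In old cells the levels were 574 and 32.3 CPM (log2 4.15, 3.95 to 4.35). The old AEC value rested on 1 cell with 98.5% of the 206 counts, and without the highest cell of each group the log2 ratio was 8.53. *Mrc1* was carried by 57 of 71 old SEC (80.3%, 69.1 to 88.8), by 13 of the 27 outside E7, and by 1 of 23 old AEC. With AEC of all library ranges in the comparison, the log2 ratios in young cells were 2.43 for *Stab1*, 5.04 for *Stab2* and 4.31 for *Mrc1*. In old cells they were 3.75, 9.15 and 5.88.

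*Fcgr2b* encodes the inhibitory IgG receptor, which on sinusoidal endothelium takes up small immune complexes. In young cells it hardly separated the populations by summed counts, at 132 CPM in SEC and 116 in AEC (log2 0.18, 0.06 to 0.29). The share of cells did differ, with 27 of 70 SEC (38.6%, 27.2 to 51) and 4 of 24 AEC (16.7%, 4.74 to 37.4) carrying it, although these intervals overlap. The 4 AEC carrying *Fcgr2b* all lay in clusters E6 or E7. A single cell, of E6, held 51% of the counts of that AEC group, and without the highest cell of each group the log2 ratio was 0.96. With AEC of all library ranges in the comparison, the log2 ratio was 2.47. In old cells SEC had 342 CPM and AEC 26.9, a log2 ratio of 3.67 (3.45 to 3.90). It was 4.65 without the highest cell of each group and 4.42 with AEC of all library ranges.

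The class B scavenger receptors ran the other way. *Cd36* encodes a receptor for long-chain fatty acids, oxidised lipoproteins and thrombospondin, and *Scarb1* encodes SR-BI, the receptor that takes cholesteryl esters from high-density lipoprotein. *Cd36* was at 2327 CPM in young AEC and 879 in young SEC (log2 -1.40, -1.44 to -1.37), and at 2620 and 1167 CPM in old AEC and SEC (log2 -1.17, -1.20 to -1.14). It was nonetheless carried by all 70 young SEC, with 12.5, 802 and 2409 CPM in the lowest, median and highest cell, while young AEC reached from 0 to 6672. With AEC of all library ranges the log2 ratios were -0.66 in young and -0.70 in old cells, under the 2-fold limit. *Scarb1* was at 485 CPM in young AEC and 334 in young SEC (log2 -0.54, -0.60 to -0.48), and at 395 and 300 CPM in old cells (log2 -0.40, -0.47 to -0.33). Both lipid receptors were thus present in both endothelial populations at either age.

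*Scarf1* encodes SREC-I, an endothelial scavenger receptor for acetylated lipoprotein and apoptotic cells. Its lowest, median and highest values were 0, 123 and 1271 CPM in young SEC and 0, 4.90 and 646 CPM in young AEC. The group levels of 218 and 69.3 CPM gave a log2 ratio of 1.66 (1.52 to 1.80), close to the 1.76 (1.64 to 1.88) of old cells.

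*Cd14* and *Tlr4*, the lipopolysaccharide co-receptor and signalling receptor, were rarer. *Cd14* was carried by 17 of 70 young SEC (24.3%, 14.8 to 36), with a median cell at 0 and a highest cell at 5286 CPM, and by 2 of 24 young AEC. The levels of 162 and 17.9 CPM gave a log2 ratio of 3.17 (2.91 to 3.45), and without the highest cell of each group it was 6.34. *Tlr4* was carried by 20 young SEC (28.6%, 18.4 to 40.6) and 1 young AEC, with levels of 48.3 and 9.27 CPM (log2 2.38, 2.01 to 2.78). Without the highest cell of each group the *Tlr4* ratio was 5.13, without cells carrying at least 3 macrophage markers it was 5.40, and with AEC of all library ranges it was 1.40. In old cells neither gene was called: *Cd14* was at 21.0 CPM in SEC and 37.8 in AEC (log2 -0.85, -1.08 to -0.61), and *Tlr4* at 18 and 16.0 CPM (log2 0.17, -0.15 to 0.50). With AEC of all library ranges the old *Cd14* ratio had the opposite direction and passed 2-fold, at 1.31. The interval of the old *Tlr4* ratio includes 0, so a difference was not detectable at this depth.

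By the GENCODE M21 annotation of GRCm38, *Stab1* lies at chr14:31139013-31168641 and *Stab2* at chr10:86841198-87008025, both on the minus strand. *Mrc1* lies at chr2:14229392-14332057 (plus) and *Fcgr2b* at chr1:170958617-170976547 (minus). The lipid receptors share chromosome 5, with *Cd36* at chr5:17781690-17888801 and *Scarb1* at chr5:125277087-125341094, both minus. *Scarf1* is at chr11:75513540-75526582 (plus), *Cd14* at chr18:36725067-36726798 (minus) and *Tlr4* at chr4:66827584-66930284 (plus), so no members are neighbours in the genome.

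Levels of different genes can be compared only per length of their merged exons. In young SEC the order in CPM per kilobase was *Stab2* (820), *Cd36* (245), *Stab1* (178), *Mrc1* (125), *Cd14* (93.4), *Scarf1* (75.6), *Scarb1* (39.3), *Fcgr2b* (22.7) and *Tlr4* (8.70). In old SEC *Stab2* (671), *Cd36* (325) and *Stab1* (151) kept the first places, *Scarf1* (114) stood above *Mrc1* (90.0), and *Fcgr2b* (59) stood above *Scarb1* (35.2), with *Cd14* (12.1) and *Tlr4* (3.24) last. The counting intervals of neighbours in these orders did not meet in SEC of either age. The place of *Cd14* above *Scarf1* in young SEC nevertheless depended on 1 cell at 5286 CPM of *Cd14*. In AEC of all library ranges together *Cd36* came first (388 CPM per kilobase young, 527 old), then *Scarb1* (52.3 and 55.1) and *Scarf1* (34.4 and 31.2). The places after *Cd36* varied by range in young AEC. In range 3 alone *Cd36* (648) was followed by *Stab2* (91.1), *Scarb1* (57.1) and *Stab1* (55.6), with *Scarf1* below them. In range 2 *Stab1* (26.7) was close to *Scarf1* (25.2). Range 1 had *Scarb1* (65.5) and *Scarf1* (57.5) next after *Cd36*, as over all ranges. Among AEC of all ranges the intervals of *Scarf1* and *Stab1* met in young cells and those of *Cd14* and *Tlr4* in old cells. On this scale *Stab2* was thus the highest of the 9 genes in SEC, and *Cd36* the highest of the 9 in AEC.

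Across the clusters, the stabilins and *Mrc1* were highest in E7, which holds most SEC, and low in E3, E4 and E5, which hold most AEC. *Stab2* was at 8231 CPM in young and 8759 in old E7 cells, at 1008 and 487 CPM in E6, and at 9.87 and 2.68 CPM in E3. *Stab1* fell off less steeply, from 2092 and 2087 CPM in E7 to 1140 and 863 in E6 and 155 and 89.1 in E3. *Mrc1* had 902 and 795 CPM in E7 and 238 and 180 in E6, and in E3 it had 0 counts in young cells. E6, with 10 young and 14 old cells, was therefore intermediate for all 3 genes. *Scarf1* was also highest in E7 (224 and 429 CPM). *Cd36* peaked in E5 instead, at 3328 and 3913 CPM, against 982 and 1182 in E7. *Scarb1* was high in E4 (714 and 730 CPM), E5 (707 and 931) and E6 (596 and 572), and lowest among the larger clusters in E3 (80.3 and 63.1). Both lipid receptors were thus higher in E5 than in E3, clusters that both consist mainly of AEC. E1 (10 young and 4 old cells) and E2 (4 cells at each age) are too small for their levels to be compared by age. Over both ages E1 was nearer to E7 than E6 was for *Stab2* (2986 CPM in E1 and 714 in E6) and *Mrc1* (394 and 205). For *Stab1* E1 was below E6 (723 and 984 CPM).

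**Figure D2:**
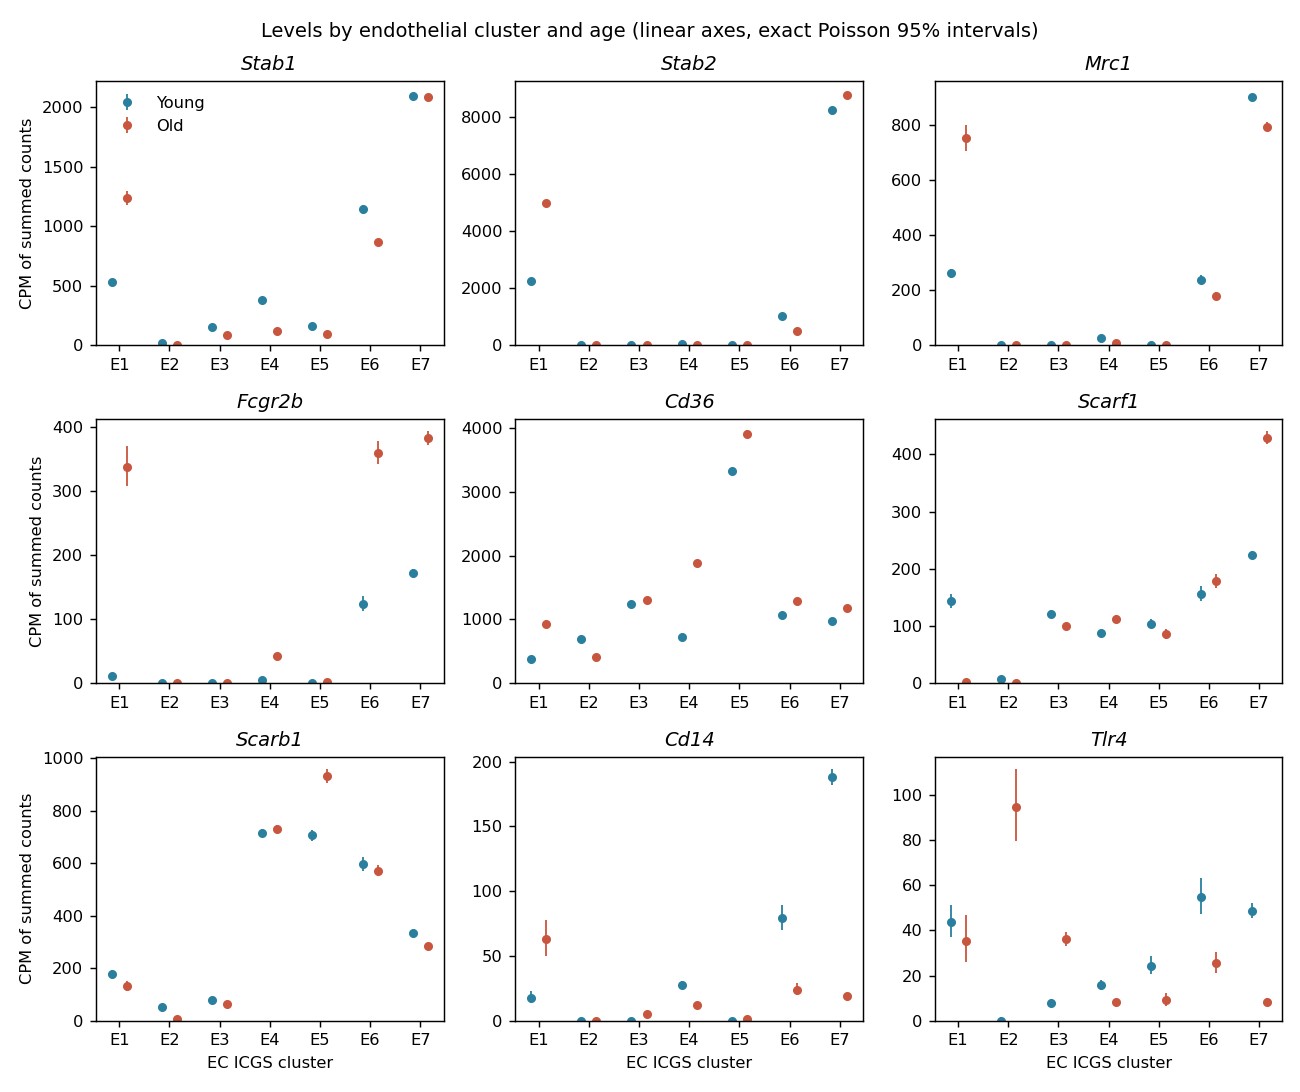
CPM of summed counts (linear y axis, a different scale in each panel) of each receptor gene by endothelial ICGS cluster E1 to E7, with young cells in blue and old cells in red and exact Poisson 95% intervals as bars. *Stab1*, *Stab2*, *Mrc1*, *Fcgr2b* and *Scarf1* are highest or nearly so in E7, while *Cd36* reaches 3328 CPM in young and 3913 CPM in old E5.

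The receptors also occurred together in single cells. The median SEC carried 7 of the 9 genes at both ages, the median AEC 3, the median E3 cell 2 and the median mesenchymal cell 1. All 105 E7 cells carried *Stab1*, *Stab2*, *Mrc1* and *Cd36*, 92 carried *Scarf1*, 92 *Scarb1*, 65 *Fcgr2b*, 21 *Tlr4* and 19 *Cd14*, and 7 carried both *Cd14* and *Tlr4*. Only 1 E7 cell, a young one, carried all 9. Spearman correlations between the genes over these 105 cells lay between -0.20 (*Cd36* with *Scarf1*) and 0.27 (*Stab1* with *Stab2*). Within an age they reached from -0.26 to 0.34 (*Stab1* with *Stab2*) over the 61 young cells and from -0.25 to 0.40 (*Stab2* with *Mrc1*) over the 44 old cells. These cells share a cluster defined on some of the same genes and differ in depth, with which *Scarb1* had a correlation of 0.37 and *Mrc1* of -0.30.

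Outside the endothelium most of the receptors were close to background. Over the 354 mesenchymal cells *Stab1* was at 2.60 CPM, *Stab2* at 2.20, *Mrc1* at 0.124, *Fcgr2b* at 2.33, *Cd36* at 3.44 and *Scarf1* at 2.08. A single cell supplied 87.4% of the mesenchymal *Fcgr2b* counts. *Scarb1* (44.3 CPM) and *Tlr4* (44 CPM) were expressed there too, and young cells sorted as MSC-L, a mesenchymal population, had 74.1 CPM of *Tlr4*, more than young SEC. *Cd14* was at 274 CPM over the mesenchymal cells, but 50645 of its 53113 counts were in old cells of the sorted OPr population, where 11 of 29 cells carried it. Markers of blood cells were not measured in that population, and nothing is read from this value. Stabilins, *Mrc1*, *Fcgr2b*, *Cd36* and *Scarf1* were thus far higher in endothelial than in mesenchymal cells, and *Tlr4* was not.

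Old and young SEC were compared next, to see which receptors differ with age. At least 2-fold lower in old SEC were 2 of 9 genes (*Cd14* and *Tlr4*), where 7.56% of 12982 genes past a filter on counts were, and at least 2-fold higher was 1 (*Fcgr2b*), where 13.1% of genes were. The median log2 ratio of old over young was -0.24 over the receptors and 0.05 over all genes. Within E7 the same 2 genes were at least 2-fold lower, against 10.4% of 11595 genes, and *Fcgr2b* at least 2-fold higher, against 11.4%. The median ratios there were -0.00 over the receptors and 0.02 over all genes. With 9 genes no statement is made about the group from these counts, and the single genes are described further.

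The stabilins and *Mrc1* were lower in old SEC as a whole, by less than 2-fold, and nearer to equal in E7. The lowest, median and highest old SEC had 0, 1493 and 4594 CPM of *Stab1*, 0, 6012 and 25064 of *Stab2*, and 0, 491 and 2175 of *Mrc1*. Their log2 ratios were -0.24 (-0.26 to -0.22), -0.29 (-0.30 to -0.28) and -0.47 (-0.50 to -0.44). *Stab2* was carried by 70 of 70 young and 58 of 71 old SEC, and the 13 old SEC without it were all outside E7, where 14 of 27 carried it. In E7 the ratios were -0.00 (-0.03 to 0.02) for *Stab1*, 0.09 (0.08 to 0.10) for *Stab2* and -0.18 (-0.22 to -0.15) for *Mrc1*. The lower stabilin levels of old SEC went with the smaller share of old SEC in E7. They also went with the higher arteriolar and the lower sinusoidal marker sum given above. The part of these in the result was not tested. *Stab1*, *Stab2* and *Mrc1* are guide genes of the clusters, so their near-equal levels in E7 follow partly from how E7 was made. By block pair, *Stab1* had log2 ratios of -0.03 (-0.06 to 0.01), -0.24 and -0.48, and *Stab2*, with the opposite direction in block pair 1, of 0.10 (0.08 to 0.11), -0.61 and -0.39. *Mrc1* differed most in block pair 3, at a log2 ratio of -1.02 (-1.08 to -0.96), against -0.20 and -0.26 in block pairs 1 and 2.

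*Fcgr2b* had the highest ratio of old over young SEC among the 9 genes. Young SEC had 0, 0 and 1118 CPM in the lowest, median and highest cell, and old SEC 0, 184 and 1419, so that the median cell was at 0 in young and well above it in old SEC while the ranges overlapped. The group levels of 132 CPM (127 to 136) and 342 CPM (334 to 350) gave a 2.60-fold higher level in old SEC (log2 1.38, 1.31 to 1.44). The gene was carried by 27 of 70 young SEC (38.6%) and 51 of 71 old SEC (71.8%, 59.9 to 81.9). With each cell thinned to 100000 counts, 40.0% of young and 74.3% of old SEC still had at least 1 count, 1 old cell being too shallow to use. Within E7 the levels were 171 and 382 CPM (log2 1.16, 1.09 to 1.22), and young SEC in E7, without the 2 AEC, were at 158 CPM. SEC outside E7 lay in different clusters at each age, the 11 young cells being 9 of E1 and 2 of E6 and the 27 old cells including 12 of E6, 6 of E4 and 4 of E1. E1 cells had a mesenchymal marker sum of 7213 CPM, against 256 in E7 and 36.1 in E6, so the young cells outside E7 were mainly cells with mesenchymal RNA. There the gene was at 10.5 CPM in young cells, with 1 cell holding 95.1% of the 41 counts, and at 275 CPM in old cells, so age and cluster cannot be told apart outside E7. By block pair the log2 ratios were 1.95 (1.85 to 2.05), 2.03 (1.88 to 2.18) and 0.17 (0.07 to 0.28), so the third pair, where young SEC were already at 205 CPM, showed little difference. The 4 B cell markers summed to 0.456 CPM in young and 3.28 CPM in old SEC, with *Ms4a1* at 0 counts in both, and the CD45- gate would remove B cells. The part of other cells in the *Fcgr2b* difference was not tested.

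**Figure D3:**
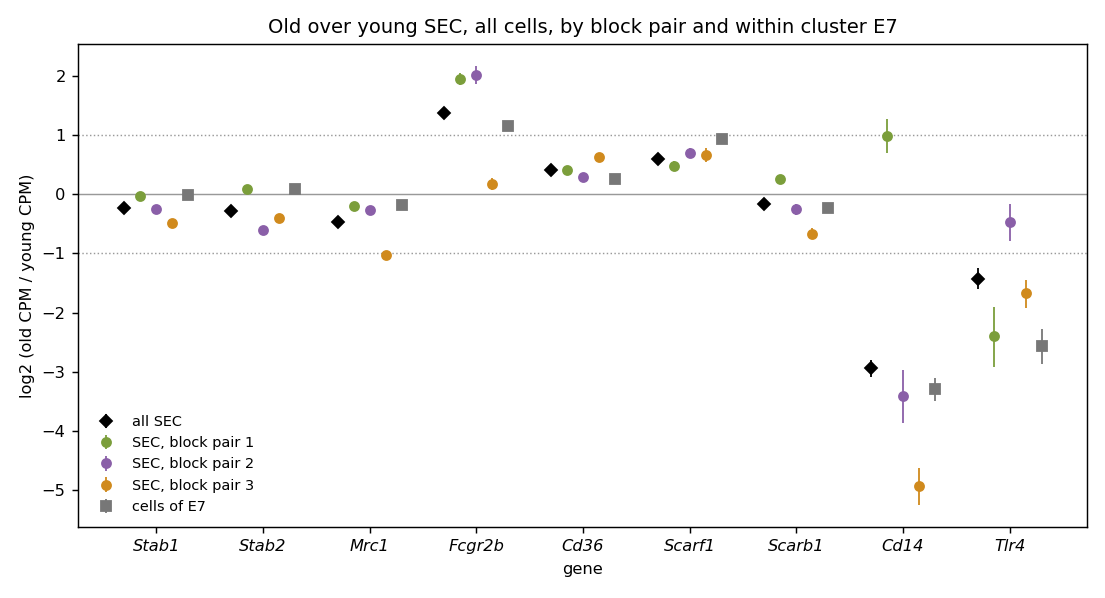
The log2 ratio of CPM in old over young cells (y axis) for each receptor gene, over all SEC, within each of the 3 pairs of library-number blocks and within cluster E7, with exact conditional binomial 95% intervals as bars and dotted lines at a ratio of 2-fold either way. *Fcgr2b* lies at 1.38 over all SEC and 0.17 in block pair 3, and *Cd14* lies at -2.94 over all SEC and 0.99 in block pair 1.

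*Cd14* had the largest difference between old and young SEC of the 9 genes, and it differed in direction between block pairs. Young SEC were at 162 CPM (156 to 167) and old SEC at 21.0 CPM (19.1 to 23.1), 7.69-fold lower (log2 -2.94, -3.09 to -2.80). The median cell was at 0 at both ages, the highest cell had 5286 CPM in young and 873 in old SEC, and 17 of 70 young and 8 of 71 old SEC carried the gene (11.3% of old SEC, 4.99 to 21.0). Single cells supplied 43.4% of the young and 45% of the old counts. In thinned cells the shares were 25.7% and 10.0%. By block pair the log2 ratios were 0.99 (0.70 to 1.28), -3.41 (-3.87 to -2.98) and -4.94 (-5.26 to -4.64), so block pair 1 went in the opposite direction, at 20.4 CPM in young and 40.4 in old SEC. The 2 old SEC with the highest *Cd14* levels, with 101 and 196 counts, were both in block 1, so the direction of that pair depended on single cells. Block 3 of young SEC, at 409 CPM, held the 3 young cells with the most *Cd14*, each of them in E7. They had 1538, 560 and 446 counts, so the size of the ratio in block pair 3 also depended on single cells. In E7 as a whole the levels were 188 and 19 CPM (log2 -3.30, -3.50 to -3.12), and without the highest cell of each group the log2 ratio was -4.43. The highest young cell had 3252 CPM of *Stab2*, no *Ptprc* count and 1 of 15 macrophage markers at 10 CPM or more.

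*Tlr4* was also lower in old SEC, at 48.3 CPM (45.5 to 51.3) in young and 18 CPM (16.2 to 19.9) in old cells, or 2.69-fold (log2 -1.43, -1.60 to -1.25). It was carried by 20 of 70 young SEC and by 12 of 71 old SEC (16.9%, 9.05 to 27.7), with a median of 0 at both ages and highest cells of 653 and 313 CPM. The ratios by block pair were -2.41 (-2.93 to -1.91), -0.47 (-0.78 to -0.16) and -1.68 (-1.92 to -1.44), all in the same direction. Within E7 the level was 48.6 CPM in young and 8.20 in old cells (log2 -2.57, -2.87 to -2.28), and outside E7, where young SEC were mainly E1 cells with mesenchymal RNA, it was 40.6 and 34.2 CPM, where the interval of the ratio included 0. Over SEC, the difference in *Tlr4* thus lay mainly in E7 cells. In the clusters that hold mainly AEC the *Tlr4* ratio was 2.18 (1.85 to 2.52) in E3, -0.96 (-1.31 to -0.62) in E4 and -1.42 (-1.93 to -0.93) in E5.

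The remaining receptors stayed under the 2-fold limit over all SEC. *Scarf1* was at 218 CPM in young and 330 in old SEC (log2 0.60, 0.54 to 0.65), higher in old SEC in each block pair (0.48, 0.70 and 0.67), and at 224 and 429 CPM in E7 (log2 0.94, 0.88 to 1.00). A smaller share of old than young SEC carried it (50 of 71 and 59 of 70), so over all SEC its higher summed level lay in fewer cells. Within E7 the shares were close, at 54 of 61 young and 38 of 44 old cells. *Cd36* was at 879 and 1167 CPM (log2 0.41, 0.38 to 0.44) and higher in old SEC in each block pair as well (0.42, 0.29 and 0.63). Outside E7, where young SEC were mainly E1 cells with mesenchymal RNA and old SEC were not, the *Cd36* level was 494 CPM in young and 1142 in old SEC, and 2 of the 3 old SEC with the most *Cd36* were in E4. Within E7 it was 982 and 1182 CPM (log2 0.27, 0.24 to 0.30). *Scarb1* was at 334 and 300 CPM (log2 -0.16, -0.21 to -0.11), with block ratios of 0.26, -0.25 and -0.66 that did not share a direction. The direction in block pair 1 depended on 1 old cell of E6 at 3317 CPM.

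Markers of other cells were measured beside these differences. The 15 macrophage and monocyte markers summed to 136 CPM in young and 259 in old SEC, with *Mertk* the most abundant (126 and 112 CPM) and *Adgre1* and *Fcgr1* at 0 counts at both ages. Only *Mertk* and *C1qa* (2.05 and 0.434 CPM) were lower in old SEC. Higher there were, among others, *Lyz2* (1.96 and 89.0 CPM, carried by 1 and 12 cells), *Tyrobp* (0.456 and 27.1), *Spi1* (1.87 and 8.93) and *C1qb* (0 and 7.58). Within E7 the macrophage list summed to 152 and 176 CPM. At least 3 of these markers were carried by 0 young and 4 old SEC. The 5 megakaryocyte and platelet markers summed to 16.8 CPM in young and 658 in old SEC, led in old SEC by *Itga2b* (378 CPM), and within E7 to 16.8 and 23.1 CPM. The 6 neutrophil markers summed to 10.4 and 45.3 CPM, and the 5 erythroid markers to 52.5 and 9.84 CPM. The 10 mesenchymal markers summed to 1323 CPM in young and 705 in old SEC, with *Lepr* the most abundant, and the 6 pericyte and smooth muscle markers to 90.1 and 476 CPM. Of the mesenchymal markers, *Lepr* (642 and 267 CPM), *Adipoq* (263 and 64.8) and *Col1a2* (192 and 67.1) were lower in old SEC. *Runx2* was nearly equal, and *Pdgfra*, *Pdgfrb*, *Col1a1*, *Dcn* (29.4 and 58.2 CPM), *Lum* and *Prrx1* were higher. Separate alternatives left out cells carrying at least 3 macrophage, 5 mesenchymal or 2 platelet markers. The last was chosen after seeing the data. In each, *Cd14* and *Tlr4* were again the genes at least 2-fold lower in old SEC. The share of all genes called in these reduced sets is not given, so nothing is read from this. Over all alternatives run, the *Fcgr2b* log2 ratio lay between 0.17 (block pair 3 alone) and 2.01 (block pair 2 alone). The part of such cells in its higher level in old SEC was not tested.

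Old and young AEC were compared in the same way. At least 2-fold lower in old AEC were 4 of 9 genes (*Stab1*, *Stab2*, *Mrc1* and *Cd14*), where 11.7% of 14042 genes were, and 0 of 9 were at least 2-fold higher, where 9.33% of genes were. The median log2 ratio was -0.58 over the receptors and -0.03 over all genes. *Stab1* had 0, 62.6 and 3490 CPM in the lowest, median and highest young AEC and 0, 27.3 and 1336 in old AEC, with levels of 339 and 114 CPM (log2 -1.57, -1.63 to -1.52). By library range the *Stab1* ratios were -1.75, -1.39 and -1.71. By cluster the ratio was -1.64 (-1.72 to -1.56) in E4 and, under the 2-fold limit, -0.79 (-0.90 to -0.69) in E3 and -0.75 (-0.90 to -0.59) in E5. These clusters hold mainly AEC, with 2 old SEC in E3, 6 in E4 and 2 in E5. *Stab2* was at 217 CPM in young AEC and 9.35 in old AEC (log2 -4.54, -4.70 to -4.38), where 1 cell supplied 81.3% of the 326 counts. Without the highest cell of each group its log2 ratio was -5.88. In library range 1 *Stab2* was near background at both ages (2.76 and 2.44 CPM, log2 -0.18, -1.07 to 0.69). In range 2 old AEC had 0 counts against 130 CPM in young AEC, where 1 cell supplied 64.7% of the counts, and in range 3 the log2 ratio was -4.06 (-4.23 to -3.89). *Mrc1* was at 39.2 and 8.75 CPM (log2 -2.17, -2.35 to -1.99) and its log2 ratio was -3.08 without the highest cell of each group. Of the young AEC, 8 were in E6, 2 in E7 and 1 in E1, and of the old AEC 2 were in E6, 0 in E7 and 0 in E1. The part of these few cells in the result was not tested, and levels of guide genes by cluster follow partly from how the clusters were made. Among AEC of E3 and E4 alone, *Stab1*, *Stab2* and *Mrc1* were again at least 2-fold lower in old cells, with a log2 ratio of -3.66 for *Stab2*, and *Fcgr2b* was higher, at 2.41. A single young cell supplied 74.7% of the 724 young *Stab2* counts there, so the size of the *Stab2* ratio rests largely on that cell. The *Fcgr2b* ratio there rests on few cells too, with 3 of 50 young and 7 of 61 old cells carrying it. A single young cell supplied 56% of the 50 young *Fcgr2b* counts. Over all AEC the *Fcgr2b* ratio had the opposite direction (log2 -0.61, -0.78 to -0.45).

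The other receptors of AEC varied by library range. *Cd14* was at 17.3 CPM in young and 7.89 in old AEC (log2 -1.13, -1.34 to -0.92), but at 17.9 and 37.8 CPM in range 3 (log2 1.08, 0.75 to 1.41), the opposite direction. In that range the highest old cells were at 615 and 298 CPM, so the direction there depended on single cells. Over all AEC *Cd14* was no longer past the 2-fold limit with size factors, thinned cells, the mean over cells or a pseudocount of 10 CPM. *Fcgr2b* ratios were 2.82 (1.44 to 4.54), 2.75 (2.30 to 3.24) and -2.12 (-2.36 to -1.87) in the 3 ranges, each resting on few cells. *Cd36* had 0, 732 and 11401 CPM in the lowest, median and highest young AEC and 0, 1470 and 8906 in old AEC. Its log2 ratio was 0.44 (0.43 to 0.46), and it was higher in old AEC in all 3 ranges (0.15, 0.60 and 0.17) and most in E4 (724 and 1884 CPM, log2 1.38, 1.35 to 1.42). *Scarf1* (99.2 and 90.0 CPM), *Scarb1* (444 and 469) and *Tlr4* (17.7 and 22.3) were under the 2-fold limit over all AEC.

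Other genes of the same pathways were taken from lists by function. Between old and young SEC, 13.1% of all genes past the filter were at least 2-fold higher and 7.56% lower, and nothing is read from the small counts of these lists. Of the 16 other scavenger receptors, 11 passed the filter in the comparison of young SEC with young AEC. At least 2-fold higher in SEC were 7 of them and 2 were lower, against 24.9% and 17.3% of all genes there. Between old and young SEC 1 of 11 was at least 2-fold lower (*Ager*), with a median log2 ratio of -0.53 against 0.05 over all genes. *Scarb2*, which encodes the lysosomal membrane protein LIMP-2, was at 186 CPM in young and 128 in old SEC, and *Cxcl16*, a transmembrane chemokine that also binds oxidised lipoprotein, at 56.7 and 35 CPM. By block pair the log2 ratios of old over young were 0.23, -1.28 and -0.68 for *Scarb2* and 0.29, -3.26 and 0.02 for *Cxcl16*. Of the 5 other Fc receptors, 3 passed the filter between old and young SEC and 1 was at least 2-fold higher (*Fcgr3*). *Fcgrt*, the neonatal Fc receptor that recycles IgG and albumin, was at 2223 CPM in young and 1548 in old SEC, and per kilobase at 1057 in young SEC, above *Fcgr2b* and *Stab2* on that scale. *Fcer1g*, the signalling chain shared by activating Fc receptors, was at 67.1 and 84.6 CPM, with log2 ratios of -0.60, 1.92 and 0.02 by block pair. Among 7 other mannose receptor family and lectin receptors, only 2 passed the filter in SEC, 1 at least 2-fold higher in old cells (*Pla2r1*) and 1 lower (*Mrc2*).

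On the lipopolysaccharide pathway, 11 of 14 partner and adaptor genes passed the filter. Between old and young SEC 1 was at least 2-fold higher (*Tollip*) and 0 were lower, against 13.1% and 7.56% of all genes. *Ly96*, which encodes MD-2, was at 86.9 CPM in young and 68.8 in old SEC, and *Lbp*, the lipopolysaccharide-binding protein, at 149 and 92.1 CPM. Within E7 both were nearly equal at the 2 ages, *Ly96* at 103 and 102 CPM and *Lbp* at 79.3 and 79.7 CPM. *Tollip*, an adaptor that restrains Toll-like receptor signalling, was at 28.5 CPM in young and 85.9 in old SEC (log2 1.59, 1.46 to 1.73). *Tollip* was higher in old SEC in each block pair, and within E7 it was at 31 and 79.3 CPM. Within E7, *Tollip* was again the 1 gene of the list at least 2-fold higher, and 1 was lower (*Tirap*). Of all genes there, 11.4% were higher and 10.4% lower. Of 11 other Toll-like receptors 4 passed the filter. In old SEC 2 were at least 2-fold lower (*Tlr6* and *Tlr8*) and 0 higher, against 7.56% and 13.1% of all genes. Within E7 1 was lower (*Tlr6*), against 10.4% of all genes. *Tlr8*, an endosomal sensor of RNA, was at 64.5 CPM in young and 29 in old SEC (log2 -1.15, -1.29 to -1.01), with ratios of -0.53, -0.90 and -2.43 by block pair. It was at 72.7 and 46.6 CPM within E7, and in AEC of library range 3 at 1.39 CPM in young cells and 0 counts in old cells. *Tlr3*, a sensor of double-stranded RNA, was at 33.2 and 41.6 CPM in SEC, with log2 ratios of 0.11, 2.53 and -2.48 by block pair that did not share a direction.

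Endocytic machinery genes were listed next. All 18 passed the filter. At least 2-fold higher in young SEC than young AEC were 4 of them and 1 was lower, against 24.9% and 17.3% of all genes. Between old and young SEC 0 were higher and 2 lower (*Ap2a2* and *Gulp1*), against 13.1% and 7.56% of all genes. The median log2 ratio of the 18 genes for old over young SEC was -0.19, against 0.05 over all genes. *Ap2a2* and *Ap2s1* encode subunits of AP-2, the adaptor that loads receptors into clathrin-coated pits, and were at 198 and 87.7 CPM and at 355 and 247 CPM in young and old SEC. *Clta*, clathrin light chain A, was at 251 and 201 CPM. Of 11 lipid uptake partners 10 passed the filter, and 2 were at least 2-fold higher in old SEC (*Slc27a4* and *Cav1*) and 0 lower. *Fabp4*, a fatty acid carrier, was at 6896 and 6470 CPM, and *Gpihbp1*, which anchors lipoprotein lipase on endothelium, at 684 and 1047 CPM. *Cav1*, the main coat protein of caveolae, was at 37.1 CPM in young and 213 in old SEC, but at 2492 CPM in young AEC of library range 3. It was at only 2.91 and 8.36 CPM in E7, so its SEC level lay mostly outside E7. Its log2 ratios of old over young SEC by block pair were -0.05, 6.07 and 6.15.

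Genes with the most similar profiles were sought over the 12 sorted populations by age, among 13341 genes with at least 1000 counts, by Pearson correlation of log2(CPM + 1). Populations in this set share libraries and the contrast between endothelium and mesenchyme. Among the nearest genes were *Crybb3* (0.986) and *Thrsp* (0.982) for *Stab1*, *Sectm1a* (0.978) for *Stab2*, and *Ubd* (0.996) and *Tfec* (0.991) for *Mrc1*. They were *Rab5c* (0.95) and *Gpr182* (0.946) for *Fcgr2b*, *Syt15* (0.985) and *Clec1a* (0.982) for *Cd36*, *Plvap* (0.972) and *Gimap6* (0.972) for *Scarf1*, and *Ecscr* (0.941) and *Lrrc8a* (0.940) for *Scarb1*. For the lipopolysaccharide receptors they were *Gpr35* (0.904) and *Emd* (0.902) for *Cd14* and *Retsat* (0.929) and *Meis3* (0.864) for *Tlr4*.

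Promoter sequence is shown for the stabilins and *Mrc1*, which were together in SEC, and for *Cd36*, which was higher in AEC. RefSeq (GRCm38.p6) promoter entries were looked up for 8 of the receptors and found for 5, namely *Stab1*, *Stab2*, *Mrc1*, *Fcgr2b* and *Cd36*, and not for *Scarf1*, *Scarb1* and *Tlr4*. The 250 bases before each RefSeq start were searched on both strands for GATA (or TATC), the core bound by GATA factors, and for GGAA (or TTCC), the core bound by ETS factors. GATA was present at 1 place in *Stab1*, 1 in *Stab2* and at 2 overlapping places in *Mrc1*, and at 0 in *Fcgr2b* and *Cd36*, where 53.6% of 32851 promoters hold it. GGAA was present at 6 places each in *Stab1*, *Stab2*, *Mrc1* and *Cd36* and at 4 in *Fcgr2b*, where 93.4% of promoters hold it. A match describes the letters in the window and not a site that is bound. The sequences, 5′ to 3′ on the strand of the gene and up to the first base of its annotated exons (GENCODE M21), have GATA or TATC in capitals. They lie at chr14:31168642-31168891 (minus strand) for *Stab1*, chr10:87008026-87008192 (minus) for *Stab2*, chr2:14229164-14229391 (plus) for *Mrc1* and chr5:17835897-17836146 (minus) for *Cd36*, the last within the annotated gene between exons.
Stab1: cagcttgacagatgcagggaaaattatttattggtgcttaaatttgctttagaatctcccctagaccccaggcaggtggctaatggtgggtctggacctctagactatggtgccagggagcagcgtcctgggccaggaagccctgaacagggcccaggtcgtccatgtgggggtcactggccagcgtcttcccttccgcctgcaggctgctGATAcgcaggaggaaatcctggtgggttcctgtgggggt
Stab2: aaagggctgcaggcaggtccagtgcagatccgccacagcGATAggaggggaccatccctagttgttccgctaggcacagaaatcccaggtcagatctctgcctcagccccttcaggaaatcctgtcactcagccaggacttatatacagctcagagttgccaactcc
Mrc1: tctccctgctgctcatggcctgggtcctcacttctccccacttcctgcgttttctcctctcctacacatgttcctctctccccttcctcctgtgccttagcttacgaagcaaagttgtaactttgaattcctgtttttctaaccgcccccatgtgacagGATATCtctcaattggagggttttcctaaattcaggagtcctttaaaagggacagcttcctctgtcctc
Cd36: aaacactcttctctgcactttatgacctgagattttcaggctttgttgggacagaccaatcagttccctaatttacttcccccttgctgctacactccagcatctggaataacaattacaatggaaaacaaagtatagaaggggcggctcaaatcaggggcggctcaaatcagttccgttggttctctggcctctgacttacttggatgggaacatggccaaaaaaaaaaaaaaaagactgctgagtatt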

How the data were processed

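Whole-number read counts per gene were deposited by the authors, who aligned single-cell libraries with GSNAP (2015-09-29) to GRCm38.p4 and counted reads with HTSeq, without strand, on Ensembl release 81. The 46078 entries were summed to 45808 symbols (45771 nuclear, 37 mitochondrial), and all deposited cells were kept. The genes and lists were chosen with earlier results of these data known. Cells of a population and age were summed as 1 sample, and no test was made. Named genes were the 9 receptors; per list, up to 2 with the highest level per length in young SEC and up to 2 with the largest ratio of old over young SEC (at least 1000 counts, carried by at least 25.0% of SEC of an age); and per receptor up to 2 of the most similar genes. List members named as past 2-fold between old and young SEC outside this rule were chosen after their values were seen. Clusters are the authors' own. Alternatives changed the scaling, pseudocount (0.1 or 10 CPM), filter, library blocks and cells used; leaving out cells with platelet markers was chosen after seeing the data. Scripts (scipy 1.17.1, matplotlib 3.10.9, pandas 2.3.3 and numpy 2.4.6 under Python 3.11.15) were tested on simulated data.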

Additional observations from a re-analysis of the deposited data

How the results depend on the processing

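No paired analysis was possible because the mouse of each cell is not given and the replicate numbers only count cells within a group; values within library ranges and block pairs are given in its place. Over the 9 receptors and all alternatives run, the direction was as reported in 108 of 108 values for young SEC over young AEC, 106 of 108 for old SEC over old AEC, 131 of 135 for old over young SEC, 118 of 126 within E7 and 122 of 135 for AEC. The genes at least 2-fold lower in old SEC numbered 1 in block pair 1 alone, 1 in block pair 2 alone and 3 in block pair 3 alone (*Mrc1*, *Cd14* and *Tlr4*), where 17.2%, 15.1% and 13.8% of all genes past the filter were, against 2 over all SEC. Within E7 they numbered 1, 2 and 2, where 18.8%, 19.8% and 18.8% of genes were. Those at least 2-fold different between old and young AEC numbered 2 in library range 1 alone (*Stab1* and *Scarf1*), where *Stab2*, *Mrc1*, *Fcgr2b* and *Cd14* did not pass the filter, and 5 each in ranges 2 and 3, against 4 over all AEC. Of all genes, 39.7%, 29.4% and 36.8% were in the 3 ranges, and 21.1% over all AEC. *Cd14* reversed, with log2 ratios of 0.95 in SEC of block pair 1, 0.35 in E7 cells of block pair 1 and 1.04 in AEC of range 3, and the cause was not tested. These reversals depended on single old cells. In block 1 an E7 cell had 196 *Cd14* counts, and in AEC of range 3 the highest cells were at 615 and 298 CPM. The lower *Cd14* level of old SEC rested on few cells as well. The 3 young SEC with the most *Cd14* had 1538, 560 and 446 counts and were all in block 3. Depth and the few cells that carry *Cd14*, *Tlr4* and, in AEC, *Stab2* and *Fcgr2b* limit those ratios.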
